A study of Homo sapiens with 66 samples.

Results

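RNA abundance of the genes of 4 CCAAT/enhancer binding proteins (C/EBPs), CEBPA, CEBPB, CEBPD and CEBPG, was followed in DLD-1 cells after the loss of components of the nuclear basket and of the mRNA export machinery. The genes were matched by symbol to the 58051 Ensembl genes of the count files, and all 4 were among the 17812 genes tested. They share one structural feature, a coding sequence that lies in 1 exon. C/EBPs are transcription factors of the basic leucine zipper (bZIP) class, which bind DNA as dimers, with themselves, with each other or with relatives such as ATF4. C/EBPα is best known for stopping proliferation and starting differentiation of fat, liver and myeloid cells, and C/EBPβ and C/EBPδ for inflammatory and acute phase genes, also in the intestinal epithelium. C/EBPγ lacks a strong activation domain of its own and works mainly as a partner, for example of ATF4 in the response to amino acid shortage.

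DLD-1 is a human colorectal cancer line. In the tagged lines an auxin-inducible degron (AID) had been added to both alleles of 1 gene, so that 1 mM auxin leads to the degradation of its protein, and the ligase this needs (TIR1) was expressed from the RCC1 locus. Each of the 22 groups held 3 libraries, 66 in all. The groups were AID-TPR (AID-NeonGreen-TPR) cells untreated and after 2 h of auxin, a second AID-TPR set whose replicates carry the label old, untreated and after 2 h and 8 h, NUP153-AID and RANGAP1-AID cells untreated and after 2 h and 8 h, and NUP50-AID cells without auxin, with 3 h and with 9 h of it. The NUP153, RANGAP1 and NUP50 tags held NeonGreen as well as the degron. AID-NXF1 (AID-FLAG-NXF1) cells were untreated or had 2 h of auxin, and AID-GANP (AID-HA-GANP1) cells were untreated or had 3 h. Parental DLD-1 cells without a tag were labelled untreated or auxin for 2 h, and AID-TPR cells were also given the transcription inhibitor actinomycin D (ActD) for 2 h, without or with auxin. TPR, NUP153 and NUP50 are nucleoporins of the basket on the nuclear face of the pore, RANGAP1 drives GTP hydrolysis by Ran in nuclear transport, NXF1 is the main mRNA export receptor and GANP is the scaffold of TREX-2, a complex that brings mRNA to the pore.

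CEBPA and CEBPG are neighbours on chromosome 19 with opposite strands and a gap of 71150 bases. CEBPA lies at chr19:33299934-33302534 on the minus strand, CEBPG at chr19:33373685-33382686 on the plus strand and CEBPB at chr20:50190830-50192668 on the plus strand (GRCh38, GENCODE release 44). CEBPA, CEBPB and CEBPD have 1 exon in all, whereas CEBPG has 2, of which 1 codes. Their canonical transcripts were 2601, 1839, 1252 and 3730 bases long, against a median of 3265 over 13137 coding genes tested. GC content was 65.9% in CEBPA, 66.2% in CEBPB and 65.97% in CEBPD, higher than in at least 97.1% of those genes, and 41.3% in CEBPG, below the median of 48.9%. Promoter windows of the 250 bases before the start were matched in RefSeq (GRCh38.p14) for CEBPA, CEBPB and CEBPG. They are shown because these 3 genes were all called lower after GANP loss. The CEBPA window is chr19:33302535-33302784 (minus strand) and the CEBPG window chr19:33373459-33373708 (plus strand). The RefSeq start of CEBPG, 33373709, lies inside the gene as placed by GENCODE, from 33373685. The last bases of its window therefore belong to that gene. For CEBPB the 30 bases around TATAAA, chr20:50190789-50190818 (plus strand), are printed. Capitals mark the motifs searched for, on either strand, and every sequence reads 5′ to 3′ on the strand of the gene.
CEBPA: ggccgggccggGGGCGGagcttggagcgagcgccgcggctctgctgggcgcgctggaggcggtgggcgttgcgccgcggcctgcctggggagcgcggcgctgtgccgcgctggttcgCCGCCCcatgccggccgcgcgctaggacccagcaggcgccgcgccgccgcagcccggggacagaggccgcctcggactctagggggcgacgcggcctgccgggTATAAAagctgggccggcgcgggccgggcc
CEBPB: acgggCCGCCCtTATAAAtaaccgggctca
CEBPG: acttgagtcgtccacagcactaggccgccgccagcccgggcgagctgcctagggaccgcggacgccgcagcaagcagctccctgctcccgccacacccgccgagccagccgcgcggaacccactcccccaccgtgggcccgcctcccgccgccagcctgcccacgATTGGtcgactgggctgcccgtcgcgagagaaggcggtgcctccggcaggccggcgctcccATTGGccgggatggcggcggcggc

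Of 35116 RefSeq promoter windows of the same length, 10.7% held the TATA box TATAAA and 32.0% held CCAAT. The GC box GGGCGG was in 42.6% of them and the cyclic AMP response element core TGACG in 21.2%. The C/EBP site TTGCNNAA was in 9.05%. CEBPA had TATAAA from 30 to 25 bases before the start, and CEBPB from 29 to 24 bases before it. GGGCGG occurred 2 times in the CEBPA window and 5 times in that of CEBPB, which also held CCAAT and TGACG once each. The CEBPG window held neither TATAAA nor GGGCGG, but CCAAT 2 times on the reverse strand, ATTGG as printed. The match nearer the RefSeq start, from 24 to 20 bases before it, lies within the gene as placed by GENCODE. TTGCNNAA was in none of the 3 windows, and no matches shared a base. A match is a description of the letters only.

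CEBPD, for which no promoter was matched, lies at chr8:47736913-47738164 on the minus strand. Total counts ranged from 18943661 to 55411411 per library, with a median of 32285399.5. The libraries were counted in more than one way: in 24 of them (AID-GANP, AID-NXF1, parental cells and the AID-TPR set without the label old) no mitochondrial counts were present. Auxin groups were for that reason compared within a line and label set, whereas the ActD libraries, which carry no label old, were set against the old untreated AID-TPR libraries. KRT8, KRT18, EPCAM, CDH1 and CDX2, markers of intestinal epithelium, were at 70.0 CPM or more in every library, KRT20 at 6.14 to 191.8 CPM and VIL1 at 1.26 to 30.6, CDX1 was near 0, and no marker of stroma, blood, vessel or liver passed 6.97 CPM. CPM, the unit of level used here, is the count relative to the library's total, after TMM scaling unless stated otherwise. Degradation of the tagged proteins cannot be read from RNA: the tagged gene's own log2 fold change at the first auxin time lay between -0.03 and 0.26. CYP1A1, a target of the aryl hydrocarbon receptor, fell in the DLD-1 libraries labelled auxin (log2 fold change -3.84) and was higher in every tagged line after auxin (1.88 to 6.67 at the first times), a direction opposite to that label. Whether the untreated and auxin labels of the DLD-1 libraries are exchanged was not tested, so these libraries are called by their labels, and differences from them are also given with the labels exchanged.

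In untreated cells CEBPG was the most abundant of the 4 genes and CEBPA the least. Per kilobase of exon, the median over 24 untreated libraries was 13.1 RPKM for CEBPG, 8.43 for CEBPB, 6.89 for CEBPD and 2.26 for CEBPA. On the CPM scale the untreated libraries spanned 41.8 to 100.1 for CEBPG (median 53.0), 7.40 to 25.5 for CEBPB (15.5), 4.203 to 12.9 for CEBPD (8.63) and 2.29 to 10.8 for CEBPA (5.88). These levels rest on 1201 to 4057 counts per untreated library for CEBPG but only on 59 to 345 for CEBPA. Over all 22 groups the mean level of CEBPA went from 1.27 ± 0.25 CPM in AID-GANP cells after auxin (SD, n = 3) to 9.77 ± 1.28 in RANGAP1-AID cells after 8 h. CEBPB went from 4.67 ± 1.05 in AID-GANP cells after auxin to 21.9 ± 5.40 in untreated NUP50-AID cells, CEBPD from 2.37 ± 0.33 to 14.1 ± 2.75 in NUP50-AID cells after 3 h, and CEBPG from 25.1 ± 2.44 to 101.1 ± 3.42 in NUP153-AID cells after 2 h. All 4 genes were thus lowest in auxin-treated AID-GANP cells. With the groups put in order of their mean, neighbours did not overlap in 2 of 21 pairs for CEBPA, 0 for CEBPB, 2 for CEBPD and 2 for CEBPG, so most neighbours in the order did not differ beyond their spread. Levels between lines are a description, since the lines were not counted alike.

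**Figure D1:**
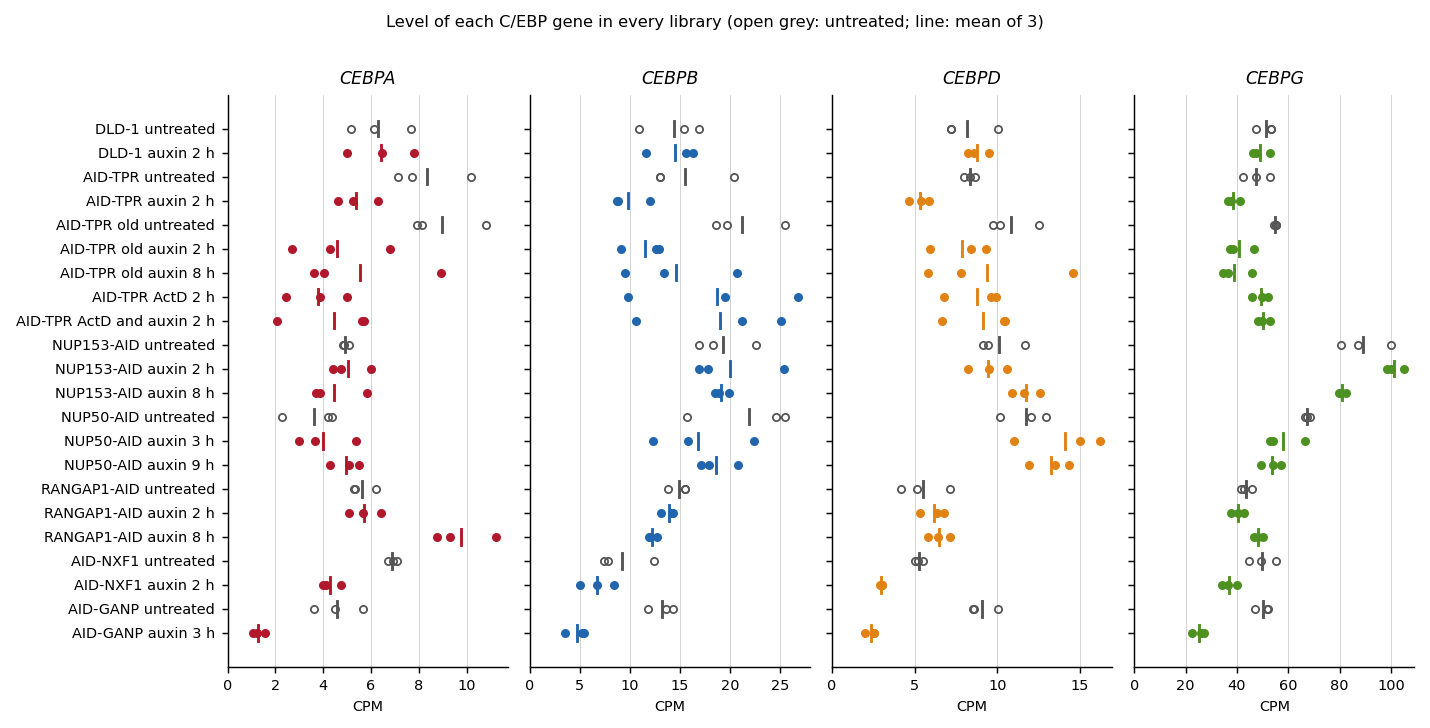
CPM of CEBPA, CEBPB, CEBPD and CEBPG (horizontal axes, linear from 0) in each of the 66 libraries, by group, with open grey circles for untreated libraries, filled circles for the others and a line at the mean of 3. The 3 auxin-treated AID-GANP libraries sit lowest by mean in all 4 panels, and CEBPG is highest in the 3 NUP153-AID groups.

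Loss of GANP lowered all 4 C/EBP RNAs. CEBPD read 8.53, 8.61 and 10.04 CPM in the untreated AID-GANP libraries and 1.99, 2.55 and 2.57 after 3 h of auxin. CEBPA went from 3.63, 4.49 and 5.65 to 1.04, 1.22 and 1.54 CPM. In both genes every auxin library lay far below every untreated one, and CEBPA was left with 44 to 65 counts per library. CEBPB read 11.8, 13.6 and 14.3 CPM untreated against 3.47, 5.18 and 5.37 with auxin. CEBPG, the most abundant, read 52.1, 51.6 and 47.1 CPM untreated against 26.0, 27.0 and 22.4. The groups did not overlap in any of the 4 genes, and 24.0% of all genes tested had every auxin library below every untreated one. The log2 fold change was -1.95 for CEBPD (standard error 0.14, 95% interval -2.25 to -1.65, adjusted p = 6.12e-06 by edgeR's quasi-likelihood test), a fall to 0.259 of the untreated level. It was -1.87 for CEBPA (0.20, -2.31 to -1.42, adjusted p = 7.45e-05), -1.52 for CEBPB (0.15, -1.86 to -1.17, 5.05e-05) and -1.01 for CEBPG (0.09, -1.21 to -0.81, 1.97e-05), or 0.274, 0.350 and 0.496 of the untreated level. Calls required an adjusted p below 0.05 together with a ratio of 1.3 or more, or of 0.7 or less (log2 0.38 and -0.51). By that rule 4 of 4 members were called lower, against 11.5% of all genes tested, and they remained so under all 8 alternative settings and without any 1 library. In bulk RNA, fewer cells that express a gene and less RNA per cell cannot be told apart.

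After GANP loss the 4 genes lay in the lower part of the distribution of genes of their own structure. Of the 727 other tested genes whose coding sequence lies in 1 exon, 329 (45.3%) were called lower after GANP loss, with a median log2 fold change of -0.46. Among 12406 protein-coding genes with more coding exons, 1239 (9.99%) were called lower and the median was 0.03. The median of the C/EBP genes was -1.69. Of all 731 genes with 1 coding exon, 1.64% had a lower log2 fold change than CEBPD, 2.46% than CEBPA, 6.98% than CEBPB and 23.3% than CEBPG. After NXF1 loss these shares were 10.3%, 14.1%, 28.5% and 30.1%. After TPR loss in the set without the label old they were 8.21%, 9.03%, 8.07% and 37.5%. In the old set they were 45.6%, 12.4%, 16.7% and 46.6% at 2 h, and 68.0%, 38.9%, 48.6% and 52.0% at 8 h. Outside the old set CEBPG stood nearest to the middle after GANP, NXF1 and TPR loss, with CEBPB close to it after NXF1 loss. In the old set CEBPD stood close to CEBPG at 2 h and above it at 8 h.

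**Figure D2:**
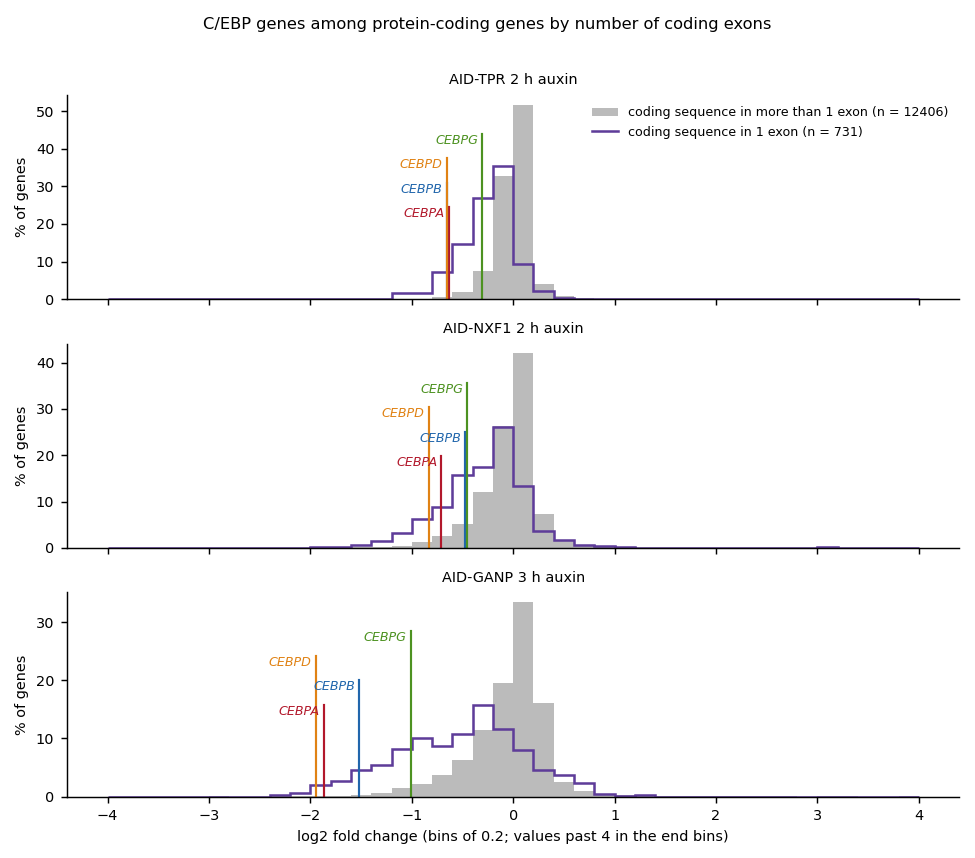
Percent of genes (vertical axis) in each bin of log2 fold change (horizontal axis) for protein-coding genes with 1 coding exon (purple outline, n = 731) and with more (grey, n = 12406) after TPR loss (set without the label old), NXF1 loss and GANP loss, with the C/EBP genes marked. The purple outline lies to the left of the grey in all 3 panels, and CEBPA, CEBPB and CEBPD lie in its left flank, furthest to the left after GANP loss, at -1.87, -1.52 and -1.95.

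Loss of NXF1 lowered CEBPA and CEBPD. CEBPD read 5.01, 5.48 and 5.21 CPM in untreated AID-NXF1 cells and 3.01, 2.89 and 3.04 after 2 h of auxin. CEBPA read 6.70, 7.07 and 6.90 CPM against 4.76, 3.987 and 4.12. Replicates of these 2 genes were close together and the groups well apart. CEBPG read 44.8, 49.4 and 55.1 CPM untreated and 34.0, 36.6 and 39.9 with auxin, without overlap. CEBPB read 7.40, 7.80 and 12.4 against 5.03, 6.66 and 8.44, and here the groups overlapped. By log2 fold change CEBPD was at -0.83 (standard error 0.12, adjusted p = 0.000417 by edgeR) and CEBPA at -0.71 (0.11, adjusted p = 0.000823). CEBPG was at -0.46 (0.08, adjusted p = 0.00246), past the p threshold but short of the fold, and CEBPB at -0.47 (0.21, adjusted p = 0.134). Thus 2 of 4 members were called lower against 5.93% of all genes, and 3 of 4 did not overlap, where 19.0% of all genes lay wholly lower. Of the other genes with 1 coding exon, 167 of 727 (23.0%) were called lower, and their median was -0.25 beside -0.59 for the C/EBP genes. The count depended on single libraries: without auxin replicate 3, CEBPB (-0.69, adjusted p = 0.0321) and CEBPG (-0.53, 0.000767) were called as well, and without untreated replicate 1 CEBPG was (-0.53, 0.00127). In 1 fit over all libraries CEBPA missed the threshold (-0.69, adjusted p = 0.0746).

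After 2 h of TPR loss in the set without the label old, the same 4 RNAs were lower in every auxin library. Their call depended on the model. CEBPD read 8.65, 8.01 and 8.38 CPM untreated and 5.87, 4.63 and 5.40 after 2 h of auxin, and CEBPA 7.12, 10.2 and 7.73 against 4.63, 6.29 and 5.23. CEBPB read 13.0, 20.4 and 13.0 CPM against 8.83, 12.05 and 8.67, and CEBPG 47.6, 52.7 and 42.2 against 36.7, 41.0 and 37.6. No auxin library of these genes reached an untreated one, which held for 9.27% of all genes tested in this direction, and replicate 2 was the highest of its group in both groups for CEBPA, CEBPB and CEBPG. The log2 fold change was -0.66 for CEBPD (standard error 0.12, 95% interval -0.93 to -0.38, adjusted p = 0.0510 by edgeR), -0.66 for CEBPB (0.19, -1.08 to -0.23, 0.217), -0.64 for CEBPA (0.17, -1.01 to -0.27, 0.148) and -0.31 for CEBPG (0.09, -0.51 to -0.10, 0.234). So 0 of 4 members were called, with 0.404% of all genes called lower (72). Among the 727 other genes with 1 coding exon, 39 (5.36%) were called lower. Their median was -0.22 beside -0.65 for the C/EBP genes. Replicates with the same number deviated together, and with the replicate block CEBPB (-0.65, adjusted p = 1.60e-08), CEBPD (-0.66, 1.29e-06) and CEBPA (-0.63, 2.77e-06) were called, while CEBPG (-0.30, 7.91e-05) fell short of the fold. That is 3 of 4, where the block called 1.65% of all genes lower. DESeq2 and the fit without a filter on low counts also called CEBPA, CEBPB and CEBPD, against 0.938% and 0.419% of all genes, and so did plain and old replicates in 1 fit (2.07%). The filter on CPM and FPKM called CEBPD alone (adjusted p = 0.0487), against 0.527%.

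The old AID-TPR set gave the same order of groups with more spread. After 2 h the untreated libraries read 7.93, 8.15 and 10.8 CPM for CEBPA and the auxin libraries 2.71, 6.81 and 4.27. CEBPB read 18.6, 19.6 and 25.4 against 9.09, 12.9 and 12.6 CPM. Again no auxin library reached an untreated one in any of the 4 genes, as in 11.4% of all genes. Log2 fold changes were -0.98 for CEBPA (standard error 0.37, adjusted p = 0.375 by edgeR), -0.89 for CEBPB (0.26, 0.220), -0.47 for CEBPD (0.30, 0.573) and -0.44 for CEBPG (0.15, 0.319), and 0 of 4 were called, with 0.258% of all genes called lower. After 8 h they were -0.72, -0.57, -0.22 and -0.50 (adjusted p = 0.279, 0.229, 0.714 and 0.118), 0 of 4 called against 0.646%, and only CEBPG did not overlap, where 15.1% of all genes lay wholly lower. Among the 727 other genes with 1 coding exon, 25 (3.44%) were called lower at 2 h and 53 (7.29%) at 8 h. Their medians were -0.40 and -0.55, beside -0.68 and -0.54 for the C/EBP genes. One library, replicate old3 after 8 h, stood apart with 8.91 CPM of CEBPA, 20.7 of CEBPB and 14.6 of CEBPD, where the other 2 read at most 4.04, 13.4 and 7.79. Without replicate old2 at 8 h CEBPG was called (-0.66, adjusted p = 0.0210). No gene in the whole table differed between 8 h and 2 h in this set (0.0% of genes at an adjusted p under 0.05 by edgeR), and the differences of the members ran from -0.07 to 0.33.

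**Figure D3:**
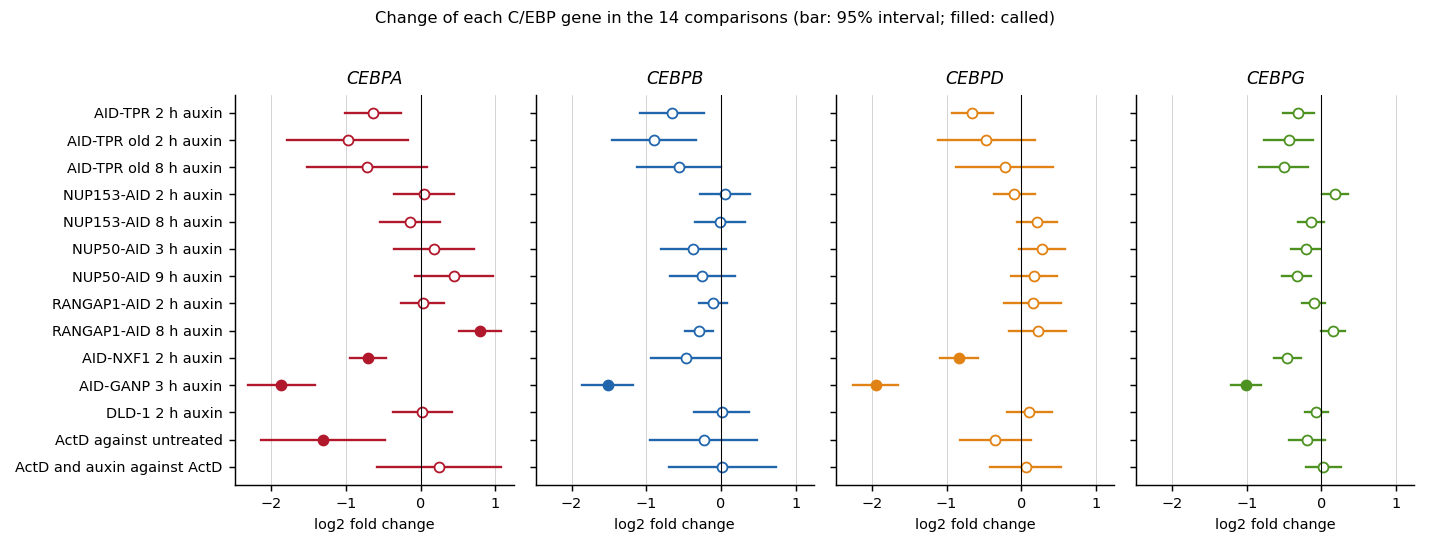
Log2 fold change (horizontal axis) of each C/EBP gene in 14 comparisons, with 95% intervals as bars and filled circles where the gene was called. All 4 circles are filled after GANP loss, CEBPA and CEBPD after NXF1 loss, and CEBPA also with ActD and, to the right of 0, in RANGAP1-AID cells after 8 h.

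The effects of the lines were compared directly by interaction terms without a replicate block (a call being an adjusted p under 0.05 by edgeR), and again with the block where same-numbered replicates were paired in both lines. Each member fell more after GANP loss than in any of 4 other sets of cells: the difference of log2 fold changes passed for 4 of 4 members against NUP153-AID (13.6% of all genes passed), NUP50-AID (13.7%), RANGAP1-AID (12.5%) and DLD-1 (20.1%) cells. The block called 4 of 4 against NUP153-AID and RANGAP1-AID cells too (32.9% and 35.4% of genes), and so did exchanged labels against DLD-1 cells (20.9%). Without the block and with the labels as given, the difference ran for CEBPD from -1.85 to -2.21, for CEBPA from -1.88 to -2.03, for CEBPB from -1.13 to -1.56 and for CEBPG from -0.78 to -1.19. All held without any 1 library except CEBPB against NUP50-AID cells, which was lost without AID-GANP auxin replicate 1 (-0.95, adjusted p = 0.0620) or untreated replicate 3 (-1.06, 0.0516) or NUP50-AID auxin replicate 3 (-0.87, 0.0593). GANP loss had also a larger effect than TPR loss on CEBPD (difference, TPR minus GANP, 1.298, 95% interval 0.91 to 1.68, adjusted p = 0.00101), CEBPA (1.23, 0.63 to 1.84, 0.0180) and CEBPG (0.71, 0.42 to 0.99, 0.00569), 3 of 4 members against 5.77% of genes. For CEBPB it was 0.86 (0.27 to 1.46, adjusted p = 0.0893), and it passed without AID-TPR untreated replicate 2 (1.12, 0.0156). The CEBPA difference was lost without untreated replicate 3 of AID-TPR (1.18, adjusted p = 0.0525) or AID-GANP cells (1.01, 0.0719). With the old AID-TPR libraries in place of the others CEBPD passed (1.49, adjusted p = 0.0246), and CEBPA (0.90, 0.507) and CEBPG (0.58, 0.140) did not. With the replicate block 4 of 4 members differed between TPR and GANP loss, CEBPB included (0.88, adjusted p = 4.12e-07), against 22.1% of genes. Against NXF1 loss the same 3 genes passed (2.62% of genes), CEBPA by 1.12, CEBPD by 1.08 and CEBPG by 0.52, and CEBPB did not (1.00, 0.36 to 1.65, adjusted p = 0.107) unless AID-NXF1 untreated replicate 3 was left out (1.28, 0.0225). The CEBPG difference was lost without any 1 of 8 libraries, AID-NXF1 auxin replicates 2 or 3 or untreated replicates 1 or 2, or AID-GANP auxin replicate 3 or any untreated replicate (adjusted p = 0.0511 to 0.118). With the replicate block 4 of 4 passed, CEBPG at 0.52 (adjusted p = 4.96e-06) and CEBPB at 1.00 (2.04e-06), against 15.1% of genes. AID-GANP cells had 3 h of auxin and the AID-TPR and AID-NXF1 cells 2 h, so time and line cannot be told apart here. NUP50-AID cells had 3 h like the AID-GANP cells, and the DLD-1 libraries, like those of AID-GANP, held no mitochondrial counts.

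NXF1 loss lowered CEBPD more than did auxin in NUP153-AID cells (difference -0.74, adjusted p = 0.0187), NUP50-AID cells (-1.10, 0.00320), RANGAP1-AID cells (-0.98, 0.0163) and DLD-1 cells (-0.95, 0.00378). CEBPA differed from NUP153-AID (-0.75, adjusted p = 0.0179) and RANGAP1-AID cells (-0.73, 0.0124), and missed the threshold against NUP50-AID (-0.88, 0.0931) and DLD-1 cells (-0.74, 0.0528). CEBPG differed from NUP153-AID (-0.64, adjusted p = 0.00610) and DLD-1 cells (-0.39, 0.0446), and CEBPB, without the block, from none (-0.09 to -0.53). Without AID-NXF1 auxin replicate 2, CEBPA (adjusted p = 0.0531) and CEBPD (0.0519) were lost against NUP153-AID cells, and CEBPD also without untreated replicate 2 (0.0519). The CEBPG difference from DLD-1 cells was lost without any 1 of 9 libraries, all but AID-NXF1 auxin replicate 3 and untreated replicate 1 and DLD-1 auxin replicate 3 (adjusted p = 0.0507 to 0.137). CEBPA passed against NUP50-AID cells without auxin replicate 1 of that line (-1.05, adjusted p = 0.0345), and against DLD-1 cells without auxin replicate 1 (-0.90, 0.0128) or untreated replicate 3 (-0.90, 0.0144). With the DLD-1 labels exchanged the differences were -0.52 for CEBPG (adjusted p = 0.00786), -0.72 for CEBPD (0.0197), -0.68 for CEBPA (0.0618) and -0.46 for CEBPB (0.374), 2 of 4 against 12.6% of genes. With the replicate block 4 of 4 members differed from NUP153-AID cells (23.6% of genes), CEBPB at -0.52 (adjusted p = 0.00145), and 4 of 4 from RANGAP1-AID cells (24.2%), CEBPB at -0.37 (0.0201) and CEBPG at -0.35 (0.000369). The numbers of members that passed, 3, 1, 2 and 2 against NUP153-AID, NUP50-AID, RANGAP1-AID and DLD-1 cells, stand beside 8.13%, 7.38%, 8.14% and 9.71% of all genes. Between TPR and NXF1 loss 0 of 4 members differed (2.28% of genes did), with differences of 0.18 for CEBPD (95% interval -0.15 to 0.52), 0.08 for CEBPA (-0.37 to 0.53), 0.15 for CEBPG (-0.13 to 0.44) and -0.18 for CEBPB (-0.88 to 0.53). The block gave 0 of 4 here as well (13.3% of genes). Without the block TPR loss against NUP153-AID, NUP50-AID, RANGAP1-AID and DLD-1 cells also gave 0 of 4 each (0.646%, 0.124%, 0.298% and 0.825% of genes). All 16 of these differences were below 0, from -0.10 to -0.94, and the closest to the threshold were CEBPD against DLD-1 (-0.77, adjusted p = 0.0915) and NUP50-AID cells (-0.94, 0.0942). Leaving out 1 library let CEBPD pass against NUP50-AID cells (without auxin replicate 1 of that line, -1.08, adjusted p = 0.0417) and DLD-1 cells (without untreated replicate 3, -0.95, 0.0190), and CEBPG against NUP153-AID cells (without untreated replicate 3 of that line, -0.59, 0.0493). The replicate block changed this outcome. Against NUP153-AID cells 4 of 4 members then passed (4.58% of genes), CEBPB at -0.70 (adjusted p = 5.99e-05), CEBPG at -0.50 (8.53e-05), CEBPA at -0.67 (0.00428) and CEBPD at -0.57 (0.0259). Against RANGAP1-AID cells CEBPD (-0.82, adjusted p = 0.00128), CEBPB (-0.53, 0.00194) and CEBPA (-0.66, 0.00388) passed and CEBPG did not (-0.19, 0.161), 3 of 4 against 5.31% of genes. With the DLD-1 labels exchanged 0 of 4 differed from DLD-1 cells (-0.38 to -0.65, 0.354% of genes).

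**Figure D4:**
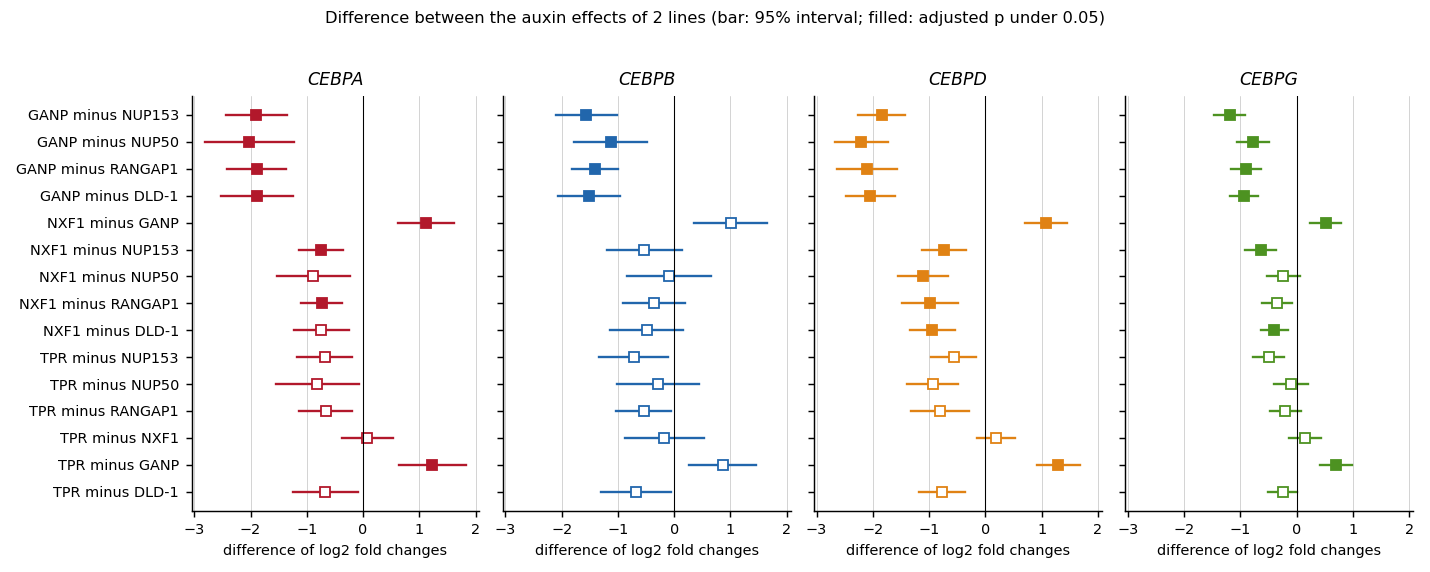
Difference of log2 fold changes at the first auxin time (horizontal axis) between GANP, NXF1 or TPR loss and the other lines, for each C/EBP gene, fitted without a replicate block, with 95% intervals as bars and filled squares at an adjusted p under 0.05. The rows of GANP loss against NUP153-AID, NUP50-AID, RANGAP1-AID and DLD-1 cells are filled for all 4 genes, and no square of TPR loss is filled except against GANP.

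In NUP153-AID, NUP50-AID and DLD-1 cells no member was called. Log2 fold changes lay between -0.09 and 0.18 after 2 h in NUP153-AID cells (0 of 4, 0.0561% of all genes called) and between -0.14 and 0.21 after 8 h (0 of 4, 1.68%). In NUP50-AID cells CEBPB and CEBPG were on the lower side after 3 h (-0.37 and -0.21) and 9 h (-0.25 and -0.33), and CEBPD and CEBPA on the higher (0.28 and 0.18, then 0.17 and 0.44), with 0 of 4 called at both times, against 0.342% and 0.286% of genes. Of these, CEBPG after 9 h had the smallest adjusted p (0.119), and its auxin libraries, 57.3, 49.4 and 54.2 CPM, all lay below the untreated 66.4, 67.2 and 68.4, as in 10.0% of all genes. The other 3 members overlapped. The DLD-1 libraries labelled auxin differed from the untreated by -0.07 to 0.11 (0 of 4, 0.0561%). Between the late and the early time in NUP153-AID cells CEBPG was lower at 8 h by -0.33 (standard error 0.08, adjusted p = 0.0420 by edgeR), with 82.4, 79.8 and 80.4 CPM against 100.1, 98.4 and 105.0 at 2 h. Untreated libraries of this line read 86.97, 80.4 and 100.1 and thus overlapped both. This 1 member of 4 stands beside 3.62% of all genes, and in NUP50-AID cells 0 of 4 differed between 9 h and 3 h (0.269%). The CEBPG difference did not pass without any 1 of the libraries at 2 h, or without replicates 2 or 3 at 8 h (adjusted p = 0.0747 to 0.128).

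CEBPA was higher in RANGAP1-AID cells after 8 h of auxin. No parental libraries had 8 h of auxin, so an effect of auxin alone at that time was not tested. Late times were not compared between lines either. CEBPA was at -0.14 after 8 h in NUP153-AID cells and at 0.44 after 9 h in NUP50-AID cells. CEBPA read 6.23, 5.35 and 5.30 CPM in untreated RANGAP1-AID cells, 6.40, 5.10 and 5.68 after 2 h and 11.2, 9.30 and 8.78 after 8 h. The libraries at 2 h overlapped the untreated ones, and those at 8 h lay above both. At 8 h the log2 fold change was 0.80 (standard error 0.13, 95% interval 0.52 to 1.07, adjusted p = 0.000977 by edgeR), which passed under all 8 alternative settings and without any 1 library, and the direct test of 8 h against 2 h gave 0.77 (0.13, adjusted p = 0.00196). CEBPB went the other way, from 15.5, 13.8 and 15.5 CPM to 12.03, 12.7 and 11.9 at 8 h, and these groups did not overlap. CEBPG, at 41.8, 42.7 and 45.7 CPM untreated and 46.5, 48.2 and 49.99 at 8 h, did not overlap either. So 3 of 4 members did not overlap, where 42.1% of all genes did not, 20.3% wholly lower and 21.9% wholly higher. The log2 fold change of CEBPB, -0.29 (0.09, adjusted p = 0.0255), passed the p threshold and not the fold. CEBPG was at 0.15 (adjusted p = 0.155) against untreated cells, and higher at 8 h than at 2 h by 0.26 (adjusted p = 0.0314), a call lost without 2 h replicates 1 or 2 or any 1 library at 8 h (0.0604 to 0.113). With the replicate block CEBPA (0.76, adjusted p = 9.43e-08) and CEBPG (0.26, 0.000193) differed between 8 h and 2 h, and CEBPB as well (-0.19, 0.0469), 3 of 4 members against 38.5% of all genes. CEBPD was at 0.22 (adjusted p = 0.395). After 2 h the members lay between -0.11 and 0.15 and 0 of 4 were called (0.909% of all genes). At 8 h 1 of 4 was called higher against 8.14% of all genes, and 2 of 4 differed between 8 h and 2 h against 16.4%.

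**Figure D5:**
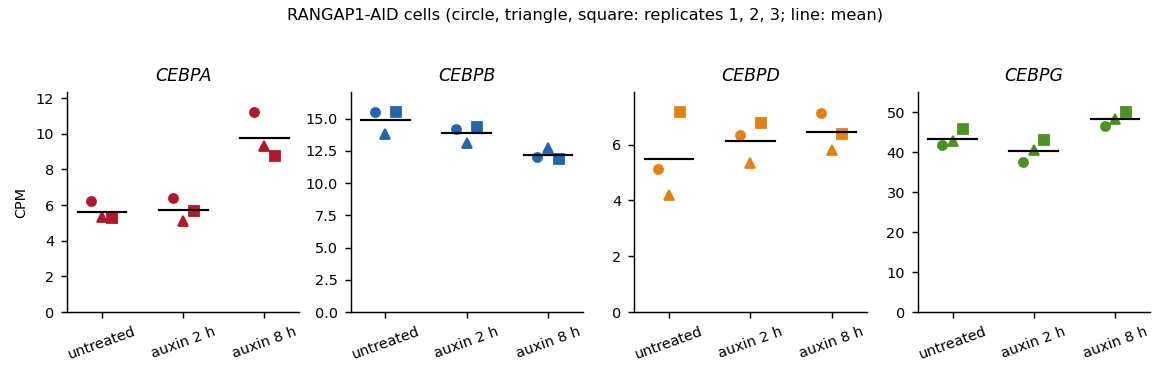
CPM (vertical axes, from 0) of each C/EBP gene in RANGAP1-AID cells untreated and after 2 h and 8 h of auxin, with a symbol per replicate and a line at the mean. CEBPA at 8 h (8.78 to 11.2 CPM) lies above the 6 other libraries, and CEBPB at 8 h (11.9 to 12.7 CPM) below them.

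With transcription inhibited, CEBPA was the 1 member called. It read 7.93, 8.15 and 10.8 CPM in the untreated old AID-TPR libraries and 3.85, 5.01 and 2.45 after 2 h of ActD, without overlap. The log2 fold change was -1.31 (standard error 0.38, 95% interval -2.13 to -0.48, adjusted p = 0.0266 by edgeR). CEBPG read 55.1, 55.3 and 54.4 CPM against 46.1, 52.2 and 49.7, also without overlap, at -0.19 (adjusted p = 0.233), and 21.5% of all genes lay wholly lower with ActD. CEBPB and CEBPD overlapped, at -0.23 (0.688) and -0.35 (0.290). So 1 of 4 members was called lower, against 12.5% of all genes. The CEBPA call was lost without ActD replicate 1 (-1.33, adjusted p = 0.0671) or 3 (-1.06, 0.0991), or without untreated replicate old2 (-1.36, 0.0537) or old3 (-1.15, 0.0894). ActD replicate 3 was the lowest of its group for CEBPA, CEBPB (9.79 CPM against 19.4 and 26.8) and CEBPD (6.75 against 9.92 and 9.62), and not for CEBPG. It was also the deepest, with 55411411 total counts against 25130610 and 25432831. Replicate 3 of ActD with auxin, at 50132334 against 27523599 and 27760418, was lowest for the same genes. Since CPM is relative to a library's total, a fall shared by most RNAs would not show. The ActD libraries carry no label old, so ActD and the set of libraries cannot be told apart. Auxin added to ActD changed 0 of 4 members (0.0% of all genes called, 0 by adjusted p in edgeR and 76 genes at an unadjusted p under 0.05), with log2 fold changes of 0.24 for CEBPA, 0.06 for CEBPD and 0.02 for CEBPB and CEBPG. The auxin effect with ActD minus that without was 1.21 for CEBPA (95% interval 0.05 to 2.38, adjusted p = 0.690), 0.91 for CEBPB (-0.10 to 1.92, 0.733), 0.52 for CEBPD (-0.15 to 1.198, 0.756) and 0.46 for CEBPG (0.12 to 0.79, 0.513), and 0 of 4 passed (0.0225% of genes).

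RNAs transcribed next to the C/EBP genes were measured as well, and their levels are given as CPM without TMM scaling. CEBPA-DT, a noncoding RNA that starts 322 bases from CEBPA on the other strand, was low, 0.49 ± 0.10 CPM in untreated AID-GANP cells (SD, n = 3) and 0.22 ± 0.03 with auxin, and was called lower after GANP loss (log2 fold change -1.06, adjusted p = 0.0254 by edgeR), NXF1 loss (-0.82, 0.0487) and ActD (-1.30, 0.0116). CEBPB-AS1, which overlaps CEBPB by 231 exon bases on the other strand, was called lower after GANP loss (-0.77, adjusted p = 0.0330). Antisense RNAs ENSG00000267580 and ENSG00000267727 overlap CEBPA by 659 and 482 exon bases. They had counts in the 24 libraries without mitochondrial counts and the 9 RANGAP1-AID libraries, where the first held 40.9% to 56.4% as many counts as CEBPA and the second 18.0% to 27.4%, and 0 in the 33 others. In AID-GANP cells the first went from 2.28 ± 0.44 to 0.57 ± 0.12 CPM, in RANGAP1-AID cells from 2.63 ± 0.49 to 4.33 ± 0.91 at 8 h, the directions of CEBPA. The library kit keeps strand, but whether the counting used it is not given in the sources used here, so reads of these RNAs and of CEBPA cannot be told apart with certainty. CEBPB-AS1 held 14.2% to 37.7% as many counts as CEBPB in the 24 libraries, and the same limit applies. Of the other C/EBP family genes, CEBPE was near 0 and not tested. CEBPZ, a protein of the same name outside the bZIP class, and DDIT3 (CHOP), a stress-induced partner that blocks C/EBP binding, were not called after GANP loss, at 0.04 (adjusted p = 0.683) and 0.36 (0.0470, short of the fold), and both are named for their family although they were not called.

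Of the other bZIP genes, 15 of 16 were tested. After GANP loss 3 were called lower, TEF (-1.33), JUND (-0.81) and ATF5 (-0.53), and 3 higher, FOS (2.66), ATF3 (0.75) and JUN (0.74), with a median of -0.20 beside 0.01 over all genes, of which 11.5% were called lower and 3.93% higher. TEF belongs to the bZIP group of the clock output factors, JUND, JUN and FOS are among the members of AP-1, and ATF3 and ATF5 are induced by stress. After NXF1 loss TEF (-0.80) and ATF4 (-0.54), the dimer partner of C/EBPs in amino acid shortage, were called lower and FOS (2.26) higher, with a median of -0.34. Of all genes, 5.93% were called lower and 2.18% higher there. After TPR loss FOS alone was called (1.295, in the old set 2.79 at 2 h and 2.84 at 8 h). Over all genes 0.073% were called higher there, and in the old set 0.124% at 2 h and 0.264% at 8 h. Among the 9 genes with a combined ATF4 and C/EBP element, CHAC1, which degrades glutathione, was called lower after GANP (-1.40) and NXF1 loss (-1.95) and TRIB3, a pseudokinase, after GANP loss (-0.53), and the medians were 0.17 and -0.21. Of 10 regulators of C/EBPs, TRIB2, which promotes the degradation of C/EBPα, was called lower after GANP loss (-0.75) and none after NXF1 or TPR loss. Of 16 genes listed as inflammatory and acute phase targets, 7 were expressed highly enough to test, PPARG among them. PTGS2 (cyclooxygenase) was called higher after GANP loss (1.14). PPP1R15A, another gene with the combined element, was called lower in the DLD-1 libraries labelled auxin (-0.57) and, as 1 of 10 such genes, was left out of the calls in tagged lines. No intestinal marker (7 tested) and no marker of other cells (3 tested) was called after GANP, NXF1 or TPR loss.

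In RANGAP1-AID cells after 8 h, where CEBPA was called higher, the lists did not all lie on one side of 0. Of the 15 bZIP genes tested 5 were called higher, ATF3 (1.62), JUN (1.03), HLF (1.02), ATF4 (0.59) and NFIL3 (0.43), and FOS was called lower (-1.35), with a median of 0.15. Of the 9 ATF4 and C/EBP element targets CHAC1 (0.92), SESN2 (0.53) and VLDLR (0.44) were called higher, with a median of 0.24. Of the 10 regulators IL6R (0.97) and TRIB1 (0.71), which leads C/EBPα to degradation, were called higher, with a median of 0.09. Of the 7 genes tested from the list of inflammatory and acute phase targets, CXCL2 was called higher (0.60), whereas 5 lay below 0 and the median was -0.15. Of the 7 intestinal markers the transcription factor CDX2 alone was called (1.01, higher), 3 lay below 0 and the median was 0.0019, and the part of CDX2 in the CEBPA value was not tested. These stand beside 8.14% of all genes called higher and 6.42% lower.

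With ActD 12.5% of all genes were called lower and 6.52% higher. Of the 15 bZIP genes tested 5 were called lower, NFIL3 (-1.26), FOSL2 (-1.24), BATF2 (-1.15), TEF (-0.94) and FOSL1 (-0.77), and 0 higher. Of the 7 genes tested from the list of inflammatory and acute phase targets, CXCL3 (-1.95), CXCL2 (-1.38) and LCN2 (-1.33) were called lower and PTGS2 higher (2.01). PPARG (-0.58), placed on the same list, was called lower too. Among the regulators TRIB1 was called lower (-1.81) and IL6ST, a receptor subunit for interleukin 6, higher (0.53). Of the 9 ATF4 and C/EBP element targets CHAC1 (-1.29) and VEGFA (-0.87) were called lower, and SLC7A11, a cystine transporter (1.17), and ASNS, asparagine synthetase (0.65), higher. Of the 7 intestinal markers CDX2 (-1.16), VIL1 (-1.50) and KRT8 (-0.82) were called lower. Of the 3 markers of other cells tested CD68 was called lower (-2.74), the other two lay above 0 and were not called, and the median was 0.55. The part of these markers in the CEBPA value was not tested.

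For each member the protein-coding genes with the most similar pattern were found by Pearson correlation of log2 fold changes over 8 comparisons (the first auxin time of each line and label set, with separate untreated libraries), among 10470 genes. The values are descriptions over few points, of which the AID-GANP value was the lowest for each member. CEBPA was followed most closely by ZNF629 (r = 0.997), PGS1 (0.997) and HPS6 (0.996), CEBPB by RNF113A (0.993), IMP3 (0.991) and LCMT2 (0.989), CEBPD by IGFBP4 (0.995), ALKBH2 (0.991) and SLC35C1 (0.990), and CEBPG by CIPC (0.992), LIPT1 (0.988) and C18orf25 (0.983). HPS6, RNF113A, IMP3, LCMT2 and LIPT1 also have a coding sequence in 1 exon. HPS6 matched CEBPA in size too (-1.99 after GANP loss, -0.65 after NXF1 loss, -0.73 after TPR loss), whereas IGFBP4 followed CEBPD at a smaller size (-0.35, -0.13 and -0.10). Among the members themselves r lay between 0.872 (CEBPB and CEBPD) and 0.959 (CEBPA and CEBPD), and the nearest relative of a member ranked between 53 (CEBPB for CEBPG) and 183 (CEBPD for CEBPA) in likeness.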

How the data were processed

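RNA was sequenced from 66 libraries of DLD-1 cells (22 groups of 3, described as independent biological replicates), and p-values measure the spread between these libraries. The deposited values are raw counts of reads per Ensembl gene, made by the authors. Submitters' processing notes name CASAVA 1.8.2, STAR 2.6.1c and featureCounts 1.5.2, and the strand setting of the counting is not given in the sources used here. No library was left out. Genes were annotated from GENCODE release 44 (56948 of 58051 matched).

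Genes at over 1 CPM in at least 4 of 60 libraries without ActD were tested (17812, holding at least 99.8% of each library's counts) with edgeR 4.0.16 (R 4.3.3): TMM scaling, quasi-likelihood test, 1 fit per line and label set, no block, Benjamini-Hochberg adjustment over all genes tested. Calls required an adjusted p below 0.05 together with a ratio of 1.3 or more, or of 0.7 or less. The 10 genes that met this in parental cells did not count as calls in tagged lines, ActD comparisons excepted. Differences between lines were interaction terms, called at an adjusted p under 0.05. Standard errors were the log2 fold change over the square root of F. The fit was tested on simulated counts. Tables and plots were made in Python 3.11.15 (pandas 2.3.3, numpy 2.4.6, matplotlib 3.10.9).

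Alternatives were DESeq2 1.42.0, its size factors, library sizes alone, no filter, a CPM and FPKM filter, a replicate block, 1 fit over all libraries, the adjusted p alone, plain and old AID-TPR libraries in 1 fit, and each library left out. The differences of GANP loss from NUP153-AID, NUP50-AID, RANGAP1-AID and DLD-1 cells, each library left out of a difference, the replicate block within lines for differences, and the exchange of the DLD-1 labels were added after seeing the data. Same-numbered replicates were taken as paired where their deviations from the group means correlated over 0.1 for all 3 numbers (genes with a mean count of 50 or more): this held in 7 of 13 comparisons, with r of 0.62, 0.68 and 0.41 in the AID-TPR set after 2 h.

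Named genes were the 4 members, genes of the fixed lists where called, CYP1A1, the tagged genes, genes whose exons overlap a member, and the 3 genes most alike. The members and lists were chosen with earlier results of these data known. One gene of the list of regulators is not reported here.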

Additional observations from a re-analysis of the deposited data

Results flagged for a closer look

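Several effects of auxin on the C/EBP genes differed between lines or times by an interaction term in edgeR without a replicate block (adjusted p under 0.05 over 17812 genes). The differences of log2 fold changes between GANP loss and NUP153-AID, NUP50-AID, RANGAP1-AID or DLD-1 cells were added after the data were seen. For CEBPG, GANP loss minus NUP153-AID, NUP50-AID, RANGAP1-AID and DLD-1 cells came to -1.19, -0.78, -0.90 and -0.93. For CEBPB the same 4 differences were -1.56, -1.13, -1.41 and -1.52. For CEBPD they were -1.85, -2.21, -2.10 and -2.05, and for CEBPA -1.90, -2.03, -1.89 and -1.88.

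TPR loss minus GANP loss gave 0.71 for CEBPG, 1.298 for CEBPD and 1.23 for CEBPA, and NXF1 loss minus GANP loss 0.52, 1.08 and 1.12. NXF1 loss minus NUP153-AID cells gave -0.64 for CEBPG, -0.74 for CEBPD and -0.75 for CEBPA. For CEBPD, NXF1 loss differed from NUP50-AID, RANGAP1-AID and DLD-1 cells by -1.10, -0.98 and -0.95. CEBPA after NXF1 loss differed from RANGAP1-AID cells by -0.73, and CEBPG from DLD-1 cells by -0.39.

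Between times, CEBPG was lower at 8 h than at 2 h by -0.33 in NUP153-AID cells and higher by 0.26 in RANGAP1-AID cells, and CEBPA was higher by 0.77 in RANGAP1-AID cells. The first auxin time was 3 h in AID-GANP and NUP50-AID cells and 2 h in the others, which cannot be told apart from the line where the times differ.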

How the results depend on the processing

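The 4 calls after GANP loss and that of CEBPA in RANGAP1-AID cells after 8 h held under all 8 alternative settings and without any 1 library. After TPR loss (0 members called) the count was 3 with DESeq2, 3 without a filter on low counts, 1 with the CPM and FPKM filter, 3 with the replicate block and 3 with plain and old replicates in 1 fit. All genes called there numbered 85, against 195 with DESeq2, 270 without a filter, 407 with the block and 457 with plain and old replicates in 1 fit. Among the log2 fold changes the replicate block changed no other call, neither in the 7 paired comparisons nor in the 6 others, whose replicates share only a number. Among the differences it was fitted where both lines were paired, and the calls it added are given beside them. In the old set after 2 h DESeq2 called 1 member, the fit without a filter 2 and 1 fit over all libraries 2, and after 8 h the last called 1 and fits without 1 library 0 to 1. The adjusted p alone gave 2 members in RANGAP1-AID cells after 8 h. After NXF1 loss 1 fit over all libraries gave 1 and fits without 1 library 2 to 4, and with ActD the latter gave 0 to 1. The cause was not tested. Directions turned for values near 0. CEBPB in NUP153-AID cells after 8 h was 0.019 with library sizes alone and 0.0013 with the replicate block, CEBPA in RANGAP1-AID cells after 2 h was -0.013 with library sizes alone, and CEBPA for TPR minus NXF1 loss was -0.26 with the old libraries.

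Without 1 library each, log2 fold changes that crossed 0 ranged as follows. CEBPD in the old AID-TPR set after 8 h ran from -0.67 to 0.012. In NUP153-AID cells after 2 h CEBPA ran from -0.11 to 0.13, CEBPB from -0.16 to 0.19 and CEBPD from -0.19 to 0.024, and after 8 h CEBPB from -0.11 to 0.12. CEBPA in NUP50-AID cells after 3 h ran from -0.11 to 0.34. In RANGAP1-AID cells after 2 h CEBPA ran from -0.060 to 0.10 and CEBPD from -0.0023 to 0.40. In DLD-1 cells CEBPA ran from -0.13 to 0.18 and CEBPB from -0.16 to 0.15. With ActD CEBPB ran from -0.58 to 0.084. With auxin added to ActD the ranges were -0.012 to 0.61 for CEBPA, -0.30 to 0.37 for CEBPB, -0.10 to 0.25 for CEBPD and -0.021 to 0.062 for CEBPG. Among the differences, TPR minus NUP50 ran from -0.18 to 0.021 for CEBPG, TPR minus NXF1 from -0.052 to 0.25 for CEBPA and from -0.46 to 0.078 for CEBPB, and NXF1 minus NUP50 from -0.30 to 0.19 for CEBPB. The difference of 8 h and 2 h in the old AID-TPR set ran from -0.26 to 0.64 for CEBPA, -0.0094 to 0.53 for CEBPB, -0.21 to 0.47 for CEBPD and -0.23 to 0.051 for CEBPG. Late minus early differences ran from -0.18 to 0.13 for CEBPB in NUP153-AID cells, from -0.054 to 0.38 for CEBPB and -0.26 to 0.0066 for CEBPD in NUP50-AID cells, and from -0.017 to 0.14 for CEBPD in RANGAP1-AID cells.

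The fewest counts of any member were those of CEBPA after GANP loss, 44 to 65 per library.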
